A study of Caenorhabditis briggsae with 6 samples.

Results

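The vacuolar proton ATPase genes described here are Cbr-vha-11 (WBGene00036659), Cbr-vha-8 (WBGene00027832), Cbr-vha-16 (WBGene00032076) and Cbr-vha-18 (WBGene00032402), 4 of the 23169 genes counted in L3 larvae of C. briggsae. They were chosen by their difference between the genotypes in an earlier analysis of the same libraries, so that difference is given as a description and no test of it is offered. The remaining pump genes that could be read from the count table number 14 and serve as context, which makes 18 pump genes in all. Identifiers were matched to symbols through the lists of changed genes that accompany the study, together with the RefSeq annotation of assembly CB4 for Cbr-vha-3. Every identifier came from those lists, so all the context genes were already listed as changed in a mutant. Cbr-vha-12, Cbr-vha-19 and Cbr-unc-32 were not analysed here because their identifiers could not be matched.

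At the L3 stage and 20 °C, whole hermaphrodites were compared between the wild-type strain AF16 and the strain PS9217, which carries Cbr-ivph-3(sy5216), with 3 biological replicates of each genotype. The larvae were grown on E. coli OP50, synchronized by bleaching and staged under the microscope. The sy5216 allele places a premature stop codon in Cbr-ivph-3, which encodes a LIN-15B-domain protein, and the mutant genotype is represented by 1 strain and 1 allele. Summed counts ranged from 22817581 to 30865944 over the 6 libraries. Levels are in CPM, the usual scale of counts relative to the library total, with totals adjusted by edgeR's TMM factors (trimmed mean of M-values). The transcript of Cbr-ivph-3 itself lay between 33.01 and 36.5 CPM in wild type and between 20.9 and 21.0 CPM in the mutant, although a stop codon does not remove a transcript and this is only a weak check of the labels. Mutant replicate 1 stood apart from the other mutant libraries, and counts of calls are also given without it.

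The vacuolar proton ATPase is a rotary pump. Its cytosolic V1 domain hydrolyses ATP, and the membrane-bound V0 domain carries protons into lysosomes, endosomes and secretory compartments or across the cell surface. In C. elegans the pump is prominent in the intestine, the excretory canal cell and the epidermis, where it takes part in the acidification of organelles and the gut lumen, in osmoregulation and in cuticle formation. Several subunits are encoded by more than 1 gene there, and subunit names below follow the C. elegans orthologs.

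In Cbr-ivph-3 larvae 3 of the subunit genes exhibited decreased abundance and 1 exhibited increased abundance. Cbr-vha-11, Cbr-vha-8 and Cbr-vha-16 were 4.54-, 2.82- and 2.18-fold lower than in wild type, while Cbr-vha-18 was 2.87-fold higher. Of the 4 genes, 3 were called lower, where 9.80% of the 14241 genes tested with edgeR's quasi-likelihood method were called lower at an adjusted p under 0.05, and 1 was called higher, where 11.7% of all tested genes were. In all 4 the genotypes did not overlap, a property of 42.3% of the tested genes. The genes were chosen on this contrast, and nothing is read from these counts.

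Cbr-vha-11 encodes subunit C, a V1 stalk protein that holds V1 and V0 together and is released when the pump comes apart. Its level was 911, 973 and 887 CPM in wild-type replicates 1, 2 and 3 and 219.5, 195 and 197 CPM in mutant replicates 1, 2 and 3. Every mutant library lay far below every wild-type library, and mutant replicate 1 was the highest of the mutant libraries. The means were 924 ± 44.0 and 204 ± 13.8 CPM (SD, n = 3 each), with a log2 fold change, mutant over wild type, of -2.18 (standard error 0.12). Of all 14241 tested genes, 51 had a lower log2 fold change than Cbr-vha-11. The level rests on 20268 to 21794 counts per wild-type library and 5214 to 7017 per mutant library.

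Cbr-vha-8 encodes subunit E, part of the peripheral stalks that keep the catalytic head from turning with the rotor. Wild-type replicates 1, 2 and 3 gave 1018, 1089.5 and 1003 CPM, and mutant replicates 1, 2 and 3 gave 336, 379.7 and 387 CPM. The genotypes were again widely separated, and here mutant replicate 1 was the lowest of the mutant libraries. From 1037 ± 46.2 to 368 ± 27.6 CPM (SD, n = 3 each), the log2 fold change was -1.50 (standard error 0.12). The number of tested genes with a lower log2 fold change was 164.

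Cbr-vha-16 encodes subunit d, which sits on top of the V0 proton-carrying ring and joins it to the central rotor. It was read at 237, 268 and 255 CPM in the wild-type libraries and at 119.9, 112 and 117 CPM in the mutant libraries, in replicate order. The mutant libraries lay within a narrow band, all below the wild-type ones. The means were 253 ± 15.9 and 116 ± 4.17 CPM (SD, n = 3 each). The log2 fold change came to -1.13 (standard error 0.12), with 425 tested genes lower.

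Cbr-vha-18 encodes a form of subunit H, a V1 protein that is needed for activity of the assembled pump and keeps free V1 inactive. In contrast to the other 3 genes it was more abundant in the mutant, at 46.8, 37.4 and 39.9 CPM in mutant replicates 1, 2 and 3 against 13.8, 14.95 and 14.4 CPM in wild-type replicates 1, 2 and 3. No mutant library overlapped with wild type, and mutant replicate 1 was the highest library. Mean levels were 14.4 ± 0.559 CPM in wild type and 41.4 ± 4.88 CPM in mutants (SD, n = 3 each). The log2 fold change was 1.52 (standard error 0.13), and 709 tested genes had a higher one. With 311 to 335 counts per wild-type library and 1001 to 1426 per mutant library, this gene has the fewest counts of the 4.

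**Figure D1:**
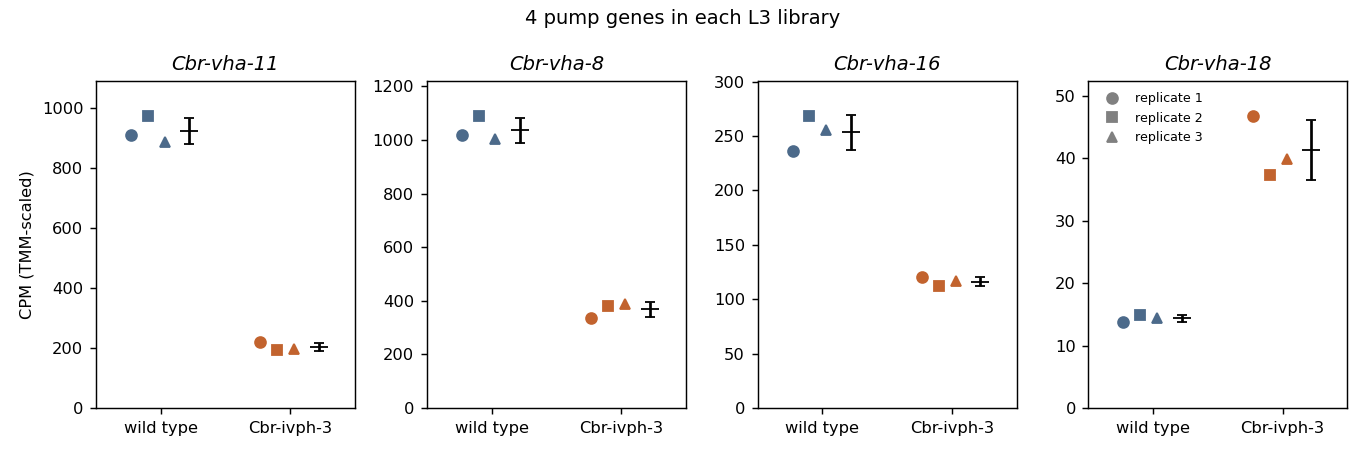
Level in CPM (y axis, starting at 0, with its own range in each panel) of 4 vacuolar proton ATPase genes in each L3 library, by genotype (x axis); symbols mark the replicate number and the bar beside each group is the mean ± SD (n = 3). Cbr-vha-11, Cbr-vha-8 and Cbr-vha-16 are lower in every Cbr-ivph-3 library, with mutant means of 204, 368 and 116 CPM, and Cbr-vha-18 is higher in every one, with a mutant mean of 41.4 CPM.

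Replicates of these genes were tight in wild type, where the coefficient of variation was 4.77% for Cbr-vha-11, 4.46% for Cbr-vha-8, 6.29% for Cbr-vha-16 and 3.89% for Cbr-vha-18. In the mutant it was 6.80%, 7.52%, 3.60% and 11.8% in the same order. Mutant replicate 1 differed from the mean of mutant replicates 2 and 3 by 0.17, -0.19, 0.07 and 0.28 on the log2 scale, in each case much less than the difference between the genotypes.

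The other subunits of V1 were mostly lower as well. Cbr-vha-13, which encodes the catalytic subunit A, was at 1572 ± 37.8 CPM in wild type and 577 ± 164 CPM in the mutant (SD, n = 3 each), and its log2 fold change was -1.45 (standard error 0.21). Its mutant libraries were uneven, with 765 CPM in replicate 1 and 474 and 490.3 CPM in replicates 2 and 3. Cbr-vha-14, the gene for subunit D of the rotor shaft, was lower by a log2 fold change of -1.32, and Cbr-vha-10 (subunit G of the peripheral stalks) and Cbr-vha-9 (subunit F of the rotor shaft) had values of -1.01 and -0.82. In the RefSeq annotation 2 other genes overlap the span of Cbr-vha-9, so its reads may be shared with them. Of the 9 V1 genes, 7 were called lower and 1, Cbr-vha-18, higher. Cbr-spe-5, which encodes a form of subunit B and is named in C. elegans for a defect in sperm formation, was not called in either direction (log2 fold change 0.65, standard error 0.23), with 58.8, 34.8 and 34.3 CPM in mutant replicates 1, 2 and 3 and 25.7 to 29.5 CPM in wild type.

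Among the 8 V0 genes, 6 were called lower by edgeR and 2, Cbr-vha-1 and Cbr-vha-17, were not called. Both were called lower by DESeq2 (-0.59 and -0.57) and by edgeR without mutant replicate 1 (-0.41 and -0.40), and Cbr-vha-1 also by limma-voom (-0.56) and with DESeq2 size factors (-0.57). The matched genes for the proton-carrying ring were unequal: Cbr-vha-3 had a log2 fold change of -1.45 (standard error 0.13) and Cbr-vha-4 of -0.78 (standard error 0.11), whereas Cbr-vha-1 was at -0.54 (standard error 0.16). No gene under the name Cbr-vha-2, after a further ring gene of C. elegans, was found. The a subunit, which forms the proton channel beside the ring and places the pump in a given membrane, has several genes. In C. elegans the products of vha-6 and of vha-5 serve the apical membrane of the intestine and the epidermis with the excretory canal, respectively. Cbr-vha-6, Cbr-vha-5 and Cbr-vha-7 were lower by similar amounts, with log2 fold changes of -0.93, -0.77 and -0.67. Cbr-vha-17, for the small subunit e, was at -0.52 (standard error 0.17). The accessory gene Cbr-vha-20, related to the prorenin receptor of vertebrates, was called lower at -1.10.

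Over the 18 pump genes, 14 were called lower, 1 higher and 3 were not called, and the genotypes did not overlap in 18. Over all tested genes 9.80% were called lower, 11.7% were called higher and 42.3% did not overlap, but the pump genes were matched through lists of changed genes and nothing is read from the difference. Their median log2 fold change was -0.97, against 0.06 over all tested genes, and the medians of the V1 and V0 genes were -1.03 and -0.78. Without mutant replicate 1, 16 were called lower and 2 higher in a fit that called 4147 lower and 4497 higher of 14476 tested genes. Among the genes called lower, Cbr-vha-7 is the least certain, as it was not called with library totals, with a replicate block (-0.67), or when wild-type replicate 1 (-0.61) or 3 (-0.73), or replicate 2 (-0.75) or 3 (-0.67) of the mutant, was left out.

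**Figure D2:**
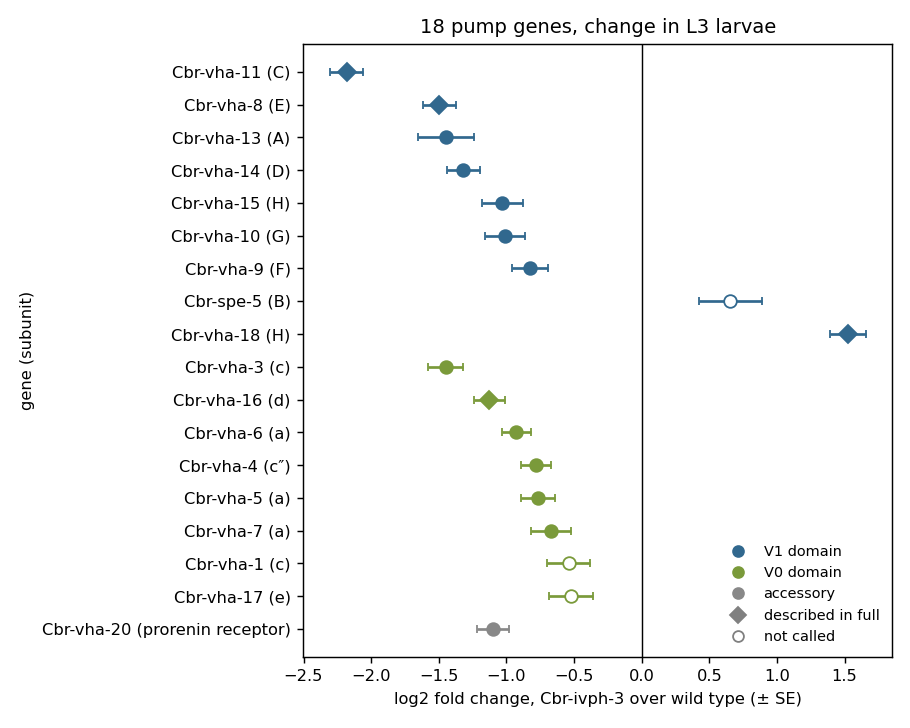
Log2 fold change, Cbr-ivph-3 over wild type (x axis), with its standard error (bars), for 18 pump genes (y axis, with the subunit in parentheses), grouped by V1 domain, V0 domain and accessory gene; diamonds mark the 4 genes described in full and open symbols the 3 genes that were not called. Values run from -2.18 for Cbr-vha-11 to 1.52 for Cbr-vha-18, and Cbr-spe-5 (0.65) is the only other gene to the right of 0.

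Summed over the 18 genes, the pump took 8637 to 9174 CPM in wild type and 3880 to 3989 CPM in the mutant, so on this scale the sum varied little among mutant libraries although single subunits differed between them. As a share of the raw library total, with no TMM scaling, the 18 genes made up 0.785% to 0.798% of wild-type counts and 0.394%, 0.464% and 0.461% of counts in mutant replicates 1, 2 and 3. Mutant replicate 1 was the lowest on both scales, with 3880 CPM against 3953 and 3989 CPM in mutant replicates 2 and 3 after TMM scaling. Cbr-vha-11 alone made up 0.0806% to 0.0846% of wild-type counts and 0.0223% to 0.0229% of mutant counts. RNA came from whole larvae, where fewer cells of a type and less RNA per cell cannot be told apart.

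Mutant replicate 1 was not uniformly high or low across the pump. It was the lowest mutant library in 12 of 18 genes and the highest in 6, where it was lowest in 49.6% and highest in 44.3% of all tested genes. Cbr-vha-13 and Cbr-spe-5 were higher in it than in mutant replicates 2 and 3 by 0.67 and 0.76 on the log2 scale, and Cbr-vha-1, Cbr-vha-15 and Cbr-vha-17 were lower in it, with differences of -0.48, -0.43 and -0.43. The map of levels by library shows this unevenness beside the wild-type columns. Wild-type libraries differed most for Cbr-vha-7 and Cbr-vha-9, with coefficients of variation of 13.4% and 12.9%.

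**Figure D3:**
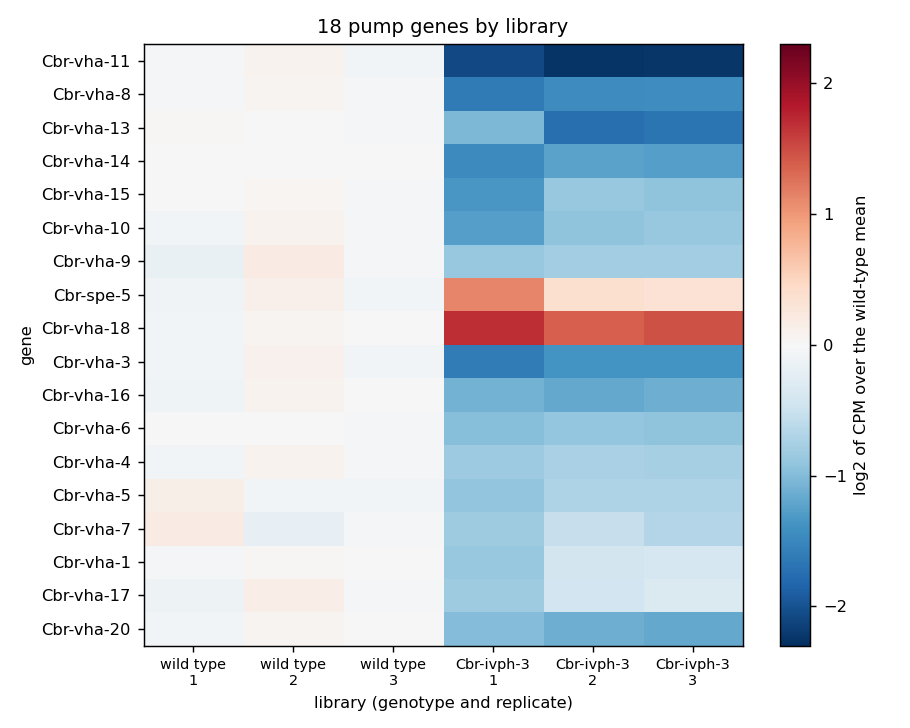
Log2 of the CPM in each library over the wild-type mean of the same gene (colour, blue below and red above 0) for 18 pump genes (rows) in 6 L3 libraries (columns, by genotype and replicate). Most genes are blue in all 3 Cbr-ivph-3 libraries and Cbr-vha-18 and Cbr-spe-5 are red; Cbr-vha-13 is paler in mutant replicate 1 (765 CPM) than in replicates 2 and 3 (474 and 490.3 CPM).

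The subunits did not move by equal amounts, which can be read from ratios of counts within a library because library scaling cancels in them. Such a ratio also depends on the lengths of both transcripts, which were not used here, so only its difference between the genotypes is described and levels are not ranked between genes. For the genes of subunit C and subunit E, Cbr-vha-11 to Cbr-vha-8, the ratio was 0.895, 0.893 and 0.885 in wild-type replicates 1, 2 and 3 and 0.653, 0.513 and 0.508 in mutant replicates 1, 2 and 3. The mean log2 ratio was lower in the mutant by a difference of -0.68, from -0.17 ± 0.01 to -0.85 ± 0.21 (SD, n = 3 each), and the genotypes did not overlap. Cbr-vha-8 to Cbr-vha-16 differed less, with a ratio of 3.93 to 4.30 in wild-type libraries, 2.80 to 3.402 in mutant libraries and a difference in log2 ratio of -0.37. Cbr-vha-11 to Cbr-vha-16 had a difference of -1.06.

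The genes of subunit H went opposite ways. Cbr-vha-15, the other subunit H gene, was at 149, 155 and 146 CPM in wild-type replicates 1, 2 and 3 and at 59.6, 81.9 and 78.9 CPM in mutant replicates 1, 2 and 3 (log2 fold change -1.03, standard error 0.15). Cbr-vha-18 supplied 8.52%, 8.78% and 8.97% of the counts of the pair in the wild-type libraries and 44.0%, 31.3% and 33.6% in the mutant libraries. All mutant shares were above all wild-type shares, with means of 8.76% ± 0.228 and 36.3% ± 6.76 (SD, n = 3 each), and mutant replicate 1 was the highest. The log2 ratio of Cbr-vha-18 to Cbr-vha-15 differed by 2.56 between the genotypes. The pair together was at 164 ± 5.21 CPM in wild-type libraries and 115 ± 7.34 CPM in mutant libraries (SD, n = 3 each). How far reads of these related genes could be mistaken for each other was not tested. Among the matched a subunit genes, which leave out Cbr-unc-32, Cbr-vha-6 supplied 53.5% ± 2.07 of the counts of Cbr-vha-5, Cbr-vha-6 and Cbr-vha-7 in wild-type libraries and 50.6% ± 1.16 in mutant libraries (SD, n = 3 each).

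**Figure D4:**
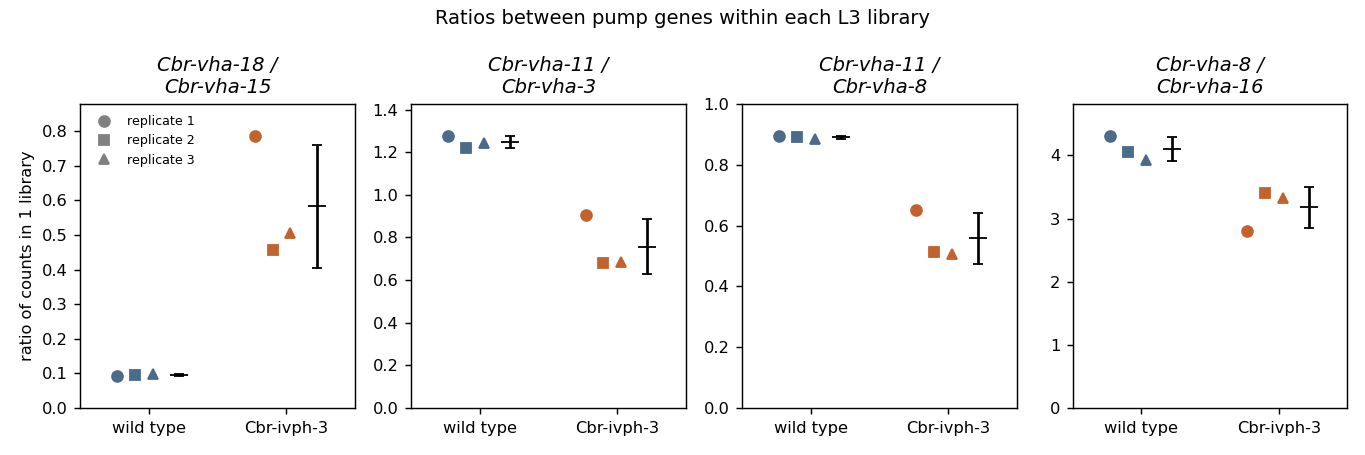
Ratio of counts of a pair of pump genes within each L3 library (y axis, starting at 0, with its own range in each panel), by genotype (x axis); symbols mark the replicate number and the bar beside each group is the mean ± SD (n = 3). Cbr-vha-18 over Cbr-vha-15 is at 0.0931 to 0.0986 in wild type and 0.456 to 0.786 in Cbr-ivph-3, and the other ratios (Cbr-vha-11 over Cbr-vha-3, Cbr-vha-11 over Cbr-vha-8, Cbr-vha-8 over Cbr-vha-16) are lower in every mutant library.

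Cbr-vha-11 lies next to Cbr-vha-3, the gene for a ring subunit of V0, in the RefSeq annotation of CB4, and in C. elegans these genes are transcribed together as an operon. Cbr-vha-3 was at 714, 797 and 713 CPM in wild-type replicates 1, 2 and 3 and at 243, 286 and 286 CPM in mutant replicates 1, 2 and 3. Both neighbours were thus lower in every mutant library, but by different amounts. The ratio of Cbr-vha-11 to Cbr-vha-3 was 1.22 to 1.28 in wild-type libraries and 0.681 to 0.905 in mutant libraries, a difference of -0.73 on the log2 scale, and it was highest among the mutant libraries in replicate 1. Cbr-vha-18 lies next to Cbr-pos-1, which encodes an RNA-binding protein of the early embryo. Cbr-pos-1 was at 6.68 ± 0.733 CPM in wild type and 17.2 ± 7.74 CPM in mutants (SD, n = 3 each). Its log2 fold change was 1.37, with mutant replicate 1 higher than mutant replicates 2 and 3 by 1.03 on the log2 scale, against 0.28 for Cbr-vha-18. For Cbr-vha-8 and Cbr-vha-16 the identifiers of the flanking genes could not be matched.

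The genes most like each subunit gene were taken as those with the smallest root mean square difference in log2 CPM, centred on the mean of each gene over 6 libraries, among 1848 tested genes with a symbol that are not pump genes. The nearest pump gene is given separately. These candidates are all genes listed as changed, and with 2 genotypes the measure mainly reflects the size of the difference between them. For Cbr-vha-11 the nearest were Cbr-sym-1 (a leucine-rich repeat protein; 0.13), Cbr-aqp-7 (an aquaporin; 0.16) and Cbr-immt-1 (a mitochondrial inner membrane protein; 0.21), while its nearest pump gene, Cbr-vha-8, was at 0.36. Outside the pump, the nearest to Cbr-vha-8 were Cbr-ifc-1 (an intermediate filament; 0.039), Cbr-glt-1 (a glutamate transporter; 0.041) and Cbr-dhs-21 (a short-chain dehydrogenase; 0.047), and the pump gene Cbr-vha-3 was nearer than these at 0.034. The genes outside the pump nearest to Cbr-vha-16 were Cbr-mrpl-44 (a mitochondrial ribosomal protein; 0.038), Cbr-alh-8 (an aldehyde dehydrogenase; 0.043) and Cbr-drd-5 (0.051), and the pump gene Cbr-vha-20, at 0.046, was nearer than Cbr-drd-5. The pattern of Cbr-vha-18 was nearest to Cbr-csr-1 (an Argonaute protein; 0.061), Cbr-ptr-20 (a patched-related protein; 0.079) and Cbr-prg-1 (a Piwi protein; 0.099), and no pump gene came closer to it than Cbr-spe-5 at 0.48.

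Markers of tissues in which the pump is prominent were read in the same libraries, as far as their identifiers could be matched. The matched markers are again all genes listed as changed. Over all tested genes 9.80% were called lower and 11.7% higher. Without mutant replicate 1, 4147 were called lower and 4497 higher of 14476 tested genes. Nothing is read from the marker counts against these, because of how the markers were matched. Of 11 intestinal markers 5 were matched, namely Cbr-elt-2, Cbr-ges-1, Cbr-ifb-2, Cbr-pept-1 and Cbr-spl-1, and 5 were called lower, with and without mutant replicate 1. Their summed level was 1916 to 1972 CPM in wild type and 707 to 817 CPM in the mutant, and their median log2 fold change was -1.13. Of 10 epidermal markers 6 were matched and 4 were called lower (5 without mutant replicate 1), namely Cbr-dpy-7, Cbr-elt-1, Cbr-elt-3 and Cbr-wrt-2 with all libraries. Cbr-dpy-13 and Cbr-rol-6 were not called (0.02 and 0.003). Summed levels were 2468 to 3085 CPM in wild type and 1424 to 3984 CPM in the mutant, the highest in mutant replicate 1. Most of that highest sum was Cbr-dpy-13, at 3133 CPM against 653 and 738 CPM in mutant replicates 2 and 3. Among mutant libraries, Cbr-dpy-7, Cbr-elt-1 and Cbr-elt-3 were lowest in replicate 1, and Cbr-dpy-13, Cbr-rol-6 and Cbr-wrt-2 were highest in it. Of 9 markers of the excretory canal cell 3 were matched (Cbr-aqp-8, Cbr-exc-5 and Cbr-pgp-12), and 0 were called by edgeR, 3 at an unadjusted p under 0.05, 3 (lower) by DESeq2 and 0 by limma-voom. Without mutant replicate 1, edgeR called 3 lower. They summed to 82.0 to 100.2 CPM in wild type and 54.9 to 66.6 CPM in the mutant. Of 10 germline markers 5 were matched and 2 were called higher (Cbr-him-3 and Cbr-gld-1), while without mutant replicate 1 the counts were 3 lower and 2 higher. The summed level of the germline markers was 296 to 308 CPM in wild type and 786, 350.2 and 361 CPM in mutant replicates 1, 2 and 3. In mutant replicates 2 and 3 most of the sum was Cbr-gld-1 (231 and 238 CPM, wild-type mean 87.7). Cbr-him-3 was also above wild type there (29.1 and 30.6 CPM, mean 14.9). Cbr-pgl-1 (59.5 and 61.8, mean 148), Cbr-htp-3 (25.1 and 25.2, mean 41.5) and Cbr-syp-1 (5.04 and 5.15, mean 11.6) were below it. None of the matched markers was at 0. Their part in the values of the pump genes was not tested.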

How the data were processed

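RNA of whole L3 hermaphrodites was analysed in 6 libraries, 3 of AF16 wild type and 3 of PS9217 Cbr-ivph-3(sy5216). The authors aligned paired-end reads to the C. briggsae WS279 genome with RNA STAR and summarised read pairs by gene in featureCounts, set to reverse-stranded and leaving out chimeric pairs. The deposited values are raw counts. The kit named in the labels does not mark strand, which conflicts with the reverse-stranded setting of the counting. This conflict was not resolved here, so reads of a gene and an antisense partner may not be told apart. Tool versions are not given in the sources used here.

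Counts were scaled by TMM and tested with edgeR 4.0.16 in R 4.3.3 (filterByExpr defaults, robust glmQLFit, glmQLFTest, Benjamini-Hochberg over 14241 genes, adjusted p under 0.05), with genotype as the only term. The standard error is the size of the log2 fold change over the square root of F. The code was tested on simulated data. Alternatives were DESeq2 1.42.0, limma-voom (limma 3.58.1), 3 other scalings, 2 other count filters (at least 1 count in any library, at least 10 counts in every library), a replicate block and each library left out.

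The 4 genes, the pump list, the marker and lysosome lists and the rule for the most similar genes were chosen with earlier results of these data known. Named genes are the 4 subunit genes, the other matched pump genes and the 3 genes outside the pump nearest to each of the 4 by the measure given above. Neighbouring, marker and lysosomal genes named outside this rule were chosen after their values were seen. A planned comparison of levels per coding length and a planned search of promoters were not made, as no sequence was used here, and each matched pump gene had an identifier from the lists of changed genes, so no pump gene was tested independently.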

Additional observations from a re-analysis of the deposited data

How the results depend on the processing

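The direction of the 4 subunit genes and their calls (3 lower, 1 higher) were the same in all 14 alternatives, and 13 of 18 pump genes kept their call in each. With library totals the log2 fold changes of Cbr-vha-11, Cbr-vha-8, Cbr-vha-16 and Cbr-vha-18 were -1.87, -1.17, -0.81 and 1.83. That scaling moved the median of all tested genes from 0.06 to 0.37, and relative to the median of the same scaling Cbr-vha-11 was at -2.24 in both. Upper-quartile scaling gave -1.05 for Cbr-vha-16, with a median of 0.14. Pump genes called higher numbered 2 under library totals and under upper-quartile scaling, where Cbr-spe-5 was added (0.95 and 0.72), and pump genes called lower ranged from 12 (library totals, without Cbr-vha-5 and Cbr-vha-7) to 16. Leaving out 1 library gave -1.22 to -1.10 for Cbr-vha-16, 1 to 2 pump genes called higher, and 625 to 4147 of all genes called lower and 605 to 4497 higher, against 1395 and 1667 with all 6 libraries. The counts were 646 and 3297 under library totals. Same-numbered replicates deviated together with correlations of 0.152, 0.174 and -0.067 across genes, so replicate numbers were not treated as pairs. A replicate block gave -2.18, -1.50, -1.13 and 1.52 for the 4 genes, and 1100 genes lower and 1236 higher. Why these counts differ was not tested. Depth was not varied, and each genotype has 3 libraries.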

Other observations

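The pump acidifies lysosomes, and other lysosomal and nutrient-sensing genes were read from a list of 25. Of these 10 could be matched, again all genes listed as changed. Here 3 were called lower, 3 higher and 4 were not called, with a median log2 fold change of -0.14. Over all tested genes 9.80% were called lower and 11.7% higher, and nothing is read from the comparison because of how the genes were matched. The lower ones were Cbr-lmp-1, a lysosomal membrane glycoprotein gene (-0.99), Cbr-laat-1, for an exporter of basic amino acids (-0.73), and Cbr-glo-1, for a Rab GTPase of gut granules (-0.78). The higher ones were Cbr-ctns-1, for the cystine exporter (0.87), Cbr-ppt-1, for a palmitoyl-protein thioesterase (1.26), and Cbr-gba-3, for a glucosylceramidase (1.15). The cathepsin genes Cbr-cpl-1, Cbr-cpr-1 and Cbr-cpr-6 were not called (-0.23, -0.57 and -0.05) and were higher in mutant replicate 1 than in mutant replicates 2 and 3 by 1.17, 0.66 and 1.05 on the log2 scale. Against wild type, mutant replicates 2 and 3 differed by -0.73, -0.81 and -0.47 in the same order. Without mutant replicate 1, 6 of the 10 were called lower and 3 higher, in a fit that called 4147 lower and 4497 higher of 14476 tested genes.

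The gene before Cbr-vha-1 in the RefSeq annotation, CBG10000, was at 1059 ± 74.0 CPM in wild type and 492 ± 27.8 CPM in the mutant (SD, n = 3 each), with a log2 fold change of -1.11 against -0.54 for Cbr-vha-1. CBG14054, next to Cbr-vha-15, was lower too, with a log2 fold change of -1.40 against -1.03. Cbr-pos-1 and Cbr-vha-3, described above, also shared the direction of the pump gene beside them. The matched neighbours of Cbr-vha-9 and Cbr-vha-4 did not. Cbr-gcy-4, next to Cbr-vha-9 (-0.82), was called higher at 1.53. It had only 5 to 13 counts per wild-type library and 27 to 42 per mutant library. CBG03297, next to Cbr-vha-4 (-0.78), was not called at 0.10.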
